A study of Mus musculus with 96 samples.

Results

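The response of control myoblasts to antimycin was measured by RNA-seq in 6 of the 96 samples of the series: 3 treated with antimycin for 10 hr and 3 treated with DMSO, the solvent, for the same time. The samples were taken by their labels, and all genes were compared. The cells are C2C12, a mouse myoblast line, transduced with a doxycycline-inducible luciferase gene that stands in for the enzymes expressed in the other lines of the study. Both groups received 300 ng/ml doxycycline from 24 hr before treatment, and were treated in medium with glucose (10 mM) and dialyzed serum. The medium lacked pyruvate and uridine. Antimycin A was used at 0.5 µM. The luciferase line is a virally transduced population of 1 cell line, kept under drug selection until it was seeded for the experiment. The labels do not say whether the 3 replicates came from separate cultures, so the spread behind the p-values may be technical. Myoblasts of the same line were also treated with piericidin, an inhibitor of complex I (0.5 µM), or oligomycin, an inhibitor of ATP synthase (1 µM). With 3 samples each, they are described only to show where the antimycin response differed. The fit that gave the spread held all 37 myoblast samples treated for 10 hr, including cells that express the enzymes LbNOX, mitoLbNOX or NDI1.

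Antimycin binds complex III of the respiratory chain at the site where coenzyme Q is reduced, so electrons from complex I, from dihydroorotate dehydrogenase and from the other enzymes that reduce coenzyme Q no longer pass on to cytochrome c. Cells with a blocked chain are known to lose NADH oxidation, mitochondrial ATP and the supply of aspartate and pyrimidines, and can release superoxide from complex III. Many mitochondrial stresses are also known to raise phosphorylation of the translation factor eIF2 alpha, the start of the integrated stress response (ISR), in which most translation falls while that of the transcription factor ATF4 rises; ATF4 then raises genes of amino acid supply, tRNA charging and protein folding.

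The 6 libraries held between 10160001 and 13898633 estimated counts, and the ranges of the groups overlapped. Genes with a count numbered 20478 to 21855 with DMSO and 18903 to 19688 with antimycin, which did not overlap, and the part of this difference in the results below was not tested. A single clone-named gene, CT010467.1, took between 24.8% and 27.0% of the counts in each. Of 7 myoblast markers, 7 were tested, 5 were called higher and 2 lower with antimycin, and their summed level was 9720.1 to 9978 normalized counts with DMSO and 12927 to 13641 with antimycin. Of 8 myotube markers, only the actin gene Acta1 passed the count filter. The summed levels of 5 markers each for endothelial cells, adipocytes and neural cells stayed at or below 31.8 normalized counts in every sample, with Emcn, Adipoq, Cidec, Rbfox3 and Snap25 at 0. The 5 macrophage markers summed to 22.6 to 29.0 with DMSO and 69.5 to 73.1 with antimycin, of which the lysosomal gene Cd68 made up most with antimycin (11.4, 9.48 and 8.69 with DMSO, 65.8, 57.5 and 62.3 with antimycin), while Ptprc, Adgre1, Csf1r and Lyz2 had means of 6.79 or lower in both groups. In bulk RNA a change in the number of cells of a type cannot be told apart from a change in RNA per cell. The 5 epithelial markers summed to between 83.9 and 131 normalized counts, mainly Krt14. The labels give each sample a position code: all 3 DMSO codes lie at the edge of a grid of 96 positions and all 3 antimycin codes lie inside it, so within these 6 samples position and treatment cannot be told apart; with position as a covariate in the fit over 37 myoblast samples, 6968 genes differed from DMSO in place of 7568. The luciferase transgene, read in all 6 samples, had normalized counts of 1889, 1840.5 and 1976 with DMSO and 1085, 882 and 1145 with antimycin, which did not overlap, with a log2 fold change -0.86 (SE 0.13, adjusted p = 4.86e-05, edgeR). No sample held a count of the other transgenes.

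Of 11981 genes tested, 63.2% differed between antimycin and DMSO at an adjusted p under 0.05 (edgeR's quasi-likelihood test), 32.1% higher and 31.1% lower. At least 2-fold rises made up 10.8% of all genes and at least 2-fold falls 12%. For 67.2% of genes the 3 values of one group lay above the 3 of the other. Because so much of the transcriptome moved, each count of list members below is to be read against these shares, or, in comparisons with the other inhibitors, against 19.3% of all genes higher and 17.9% lower than with piericidin and 26.1% higher and 23.9% lower than with oligomycin. The median log2 fold change over all tested genes was -0.0048. Scaling by total counts in place of TMM, tried after the data were seen, moved that median to -0.30. It gave 2290 genes higher and 5647 lower in place of 3844 and 3724, so rises and falls below are relative to the median gene. For list counts against DMSO, those by total counts are given where they differ by over 1.5 times. List counts against the other inhibitors were not recomputed under this scaling or any other alternative. Where a gene is given as going from 3 values to 3 others, the first are the normalized counts with DMSO and the second those with antimycin, each in the order of replicates.

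**Figure D1:**
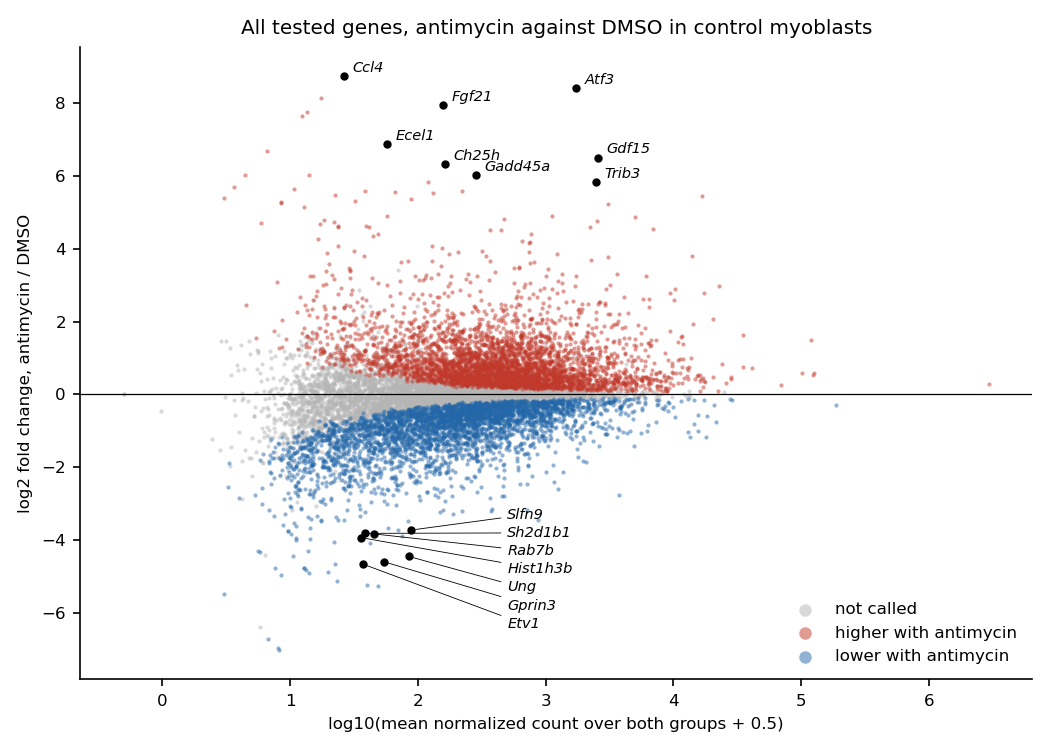
Each point is 1 of 11981 tested genes; the x axis gives log10 of the mean normalized count over both groups plus 0.5, and the y axis the log2 fold change with antimycin over DMSO. Red and blue points passed an adjusted p of 0.05 (edgeR) and grey points did not; the labelled genes are among the 8 largest rises and 8 largest falls by the naming rule, and for Ccl4, at 0 in all DMSO samples, the plotted value depends on the fit's prior count and is no bound.

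The 8 largest rises included Atf3, Fgf21, Gdf15 and Trib3, known members or targets of the ISR, and 4 other genes. Gadd45a, a growth arrest and DNA damage inducible gene (chr6:67035096-67037457 in GRCm38, the build of all coordinates here), had normalized counts of 14.3, 4.38 and 7.72 with DMSO and 562, 497 and 614 with antimycin, with a log2 fold change 6.03 (SE 0.31, adjusted p = 8.44e-17, edgeR). Ch25h, which encodes the enzyme that makes 25-hydroxycholesterol, an oxysterol known to restrain sterol synthesis, had counts of 3.81, 7.29 and 0 with DMSO and 344, 367 and 264 with antimycin, log2 fold change 6.32 (SE 0.49, adjusted p = 1.69e-12, edgeR). Ecel1, a membrane metalloprotease gene, had 0.953, 1.46 and 0 with DMSO and 117, 116 and 109 with antimycin; its DMSO samples held 3 counts in all, for a ratio, after scaling by the groups' total counts, of 108 with a 95% interval of 36.6 to 526 that covers counting error only. The chemokine gene Ccl4 had no count with DMSO and 48.0, 68.3 and 40.3 normalized counts with antimycin, at least 49.3-fold higher, scaled by total counts, against a floor of 3 counts over the group.

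Among the 8 largest falls, Ung, encoding the uracil-DNA glycosylase that removes uracil from DNA (chr5:114130386-114139323), had 166, 174 and 147 with DMSO and 8.35, 5.99 and 7.33 with antimycin. That is a log2 fold change -4.45 (SE 0.25, adjusted p = 7.76e-16, edgeR), with the antimycin samples close together and far under DMSO. Etv1, an ETS-family transcription factor, went from 80.0, 37.9 and 93.7 to 6.26, 1.2 and 0, log2 fold change -4.66 (SE 0.55, adjusted p = 1.34e-08, edgeR). Gprin3, a G-protein-linked membrane protein gene, had 91.5, 131 and 89.8 with DMSO and 9.39, 2.4 and 0 with antimycin, log2 fold change -4.59 (SE 0.40, adjusted p = 2.74e-11, edgeR). In each of these last genes 1 antimycin sample was at 0; the naming rule itself asked for groups that do not overlap. Others were the histone gene Hist1h3b (-3.93), the small GTPase gene Rab7b (-3.83), the adaptor gene Sh2d1b1 (-3.81) and Slfn9 (-3.72). Hist1h3b and Slfn9 have close relatives in the genome, so the assignment of reads to them is uncertain, and replication-dependent histone transcripts mostly lack the polyA tail that the libraries selected for.

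The promoters of members show which of these genes carry the composite C/EBP-ATF element (CARE) to which ATF4 binds with its C/EBP partners. The letters searched were TGATGNAA on either strand, in the 300 bases from 250 before to 50 after each RefSeq start (GRCm38.p6); 8828 of the 11981 tested genes had a promoter in the table by symbol. The motif was in 2.56% of these, in 5.40% of the 945 that were at least 2-fold higher with antimycin and in 1.79% of the 1004 that were at least 2-fold lower. By list, it was in 4 of 9 ISR transcription factors, 5 of 12 cytosolic tRNA synthetases and 4 of 14 amino acid synthesis genes with a promoter, and in 0 of 8 one-carbon enzymes, 0 of 14 mitochondrial tRNA synthetases, 0 of 12 mitochondrial chaperones and 0 of 7 snoRNA hosts. The windows of 60 bases below, 5′ to 3′ on the gene's strand with the motif in capitals, are shown because the first 5 genes are among the main risers whereas Pycr1 and Ung, chosen after their values were seen, hold the same letters with other outcomes.
Atf3, chr1:191183410-191183469, minus strand: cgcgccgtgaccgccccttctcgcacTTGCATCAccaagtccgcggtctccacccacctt
Trib3, chr2:152344013-152344072, minus strand: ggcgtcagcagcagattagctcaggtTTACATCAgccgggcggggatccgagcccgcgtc
Chac1, chr2:119351023-119351082, plus strand: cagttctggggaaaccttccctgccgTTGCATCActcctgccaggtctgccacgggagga
Asns, chr6:7693199-7693258, minus strand: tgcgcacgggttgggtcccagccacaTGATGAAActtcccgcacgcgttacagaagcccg
Fgf21, chr7:45615596-45615655, minus strand: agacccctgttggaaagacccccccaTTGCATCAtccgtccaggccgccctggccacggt
Pycr1, chr11:120643818-120643877, minus strand: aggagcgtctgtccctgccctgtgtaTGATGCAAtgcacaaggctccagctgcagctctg
Ung, chr5:114130223-114130282, plus strand: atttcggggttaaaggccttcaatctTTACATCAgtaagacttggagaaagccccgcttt

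The motif lay 14 bases after the start in Trib3 and between 23 and 193 bases before it in the other six. Pycr1, a proline synthesis enzyme, had a log2 fold change -0.04 (SE 0.10, adjusted p = 0.835, edgeR), so it did not pass the test, and Ung was among the largest falls. A match is a description of the letters and not a measured binding site.

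Of 9 genes tested in the list of ISR transcription factors, which also holds their partner Trib3, 8 rose and 1 fell, with a median log2 fold change of 2.67 (all genes, -0.0048); Cebpb did not pass the count filter. Trib3, a pseudokinase that binds ATF4 (chr2:152337422-152344032), had normalized counts of 101, 76.6 and 81.1 with DMSO and 4908, 4823 and 4876 with antimycin, log2 fold change 5.83 (SE 0.09, adjusted p = 1.44e-29, edgeR). Nupr1, a small stress-induced chromatin protein, rose by 2.67 on the log2 scale and Jdp2, a partner of AP-1 factors, by 1.08. Atf4 itself rose by 2.78, Ddit3 by 5.23 and Atf3 by 8.42. The fall was that of Creb3l2 from 371, 365 and 362 to 284, 297 and 346, log2 fold change -0.24 (SE 0.09, adjusted p = 0.0282, edgeR), a call lost with no count filter (adjusted p = 0.197), with position as a covariate (0.146) and without antimycin replicate 1 (0.141), DMSO replicate 1 (0.0647) or DMSO replicate 2 (0.0568).

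The list of feedback genes and growth brakes also holds Vldlr, and Nars and Slc3a2 from the tRNA synthetase and transporter lists. All 10 of its genes rose, with a median of 2.56. Chac1, which degrades glutathione (chr2:119351229-119354381), went from 218, 139 and 177 to 4389, 4179 and 4205, log2 fold change 4.60 (SE 0.11, adjusted p = 8.03e-25, edgeR). Vldlr, a lipoprotein receptor and known ATF4 target, had 18.1, 23.3 and 12.6 with DMSO and 139.9, 134 and 109 with antimycin, log2 fold change 2.80 (SE 0.19, adjusted p = 5.73e-14, edgeR). The 2 growth brakes that inhibit mTORC1, Sesn2 and Ddit4, rose by 2.49 and 2.75. In each of these 10 genes every antimycin value lay above every DMSO value.

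Of 9 genes for eIF2 alpha kinases and their relay, 4 rose, 3 fell and 2 were not called, with a median of 0.10; by total counts 1 rose and 3 fell. Of all genes, 32.1% rose and 31.1% fell. Eif2ak2, which encodes the double-stranded RNA sensor PKR, had 192, 166 and 186 with DMSO and 49.1, 44.3 and 39.1 with antimycin, log2 fold change -2.02 (SE 0.21, adjusted p = 1.38e-09, edgeR), and its groups did not overlap. Eif2ak1, the heme-regulated kinase HRI, fell by 0.71, and Eif2ak4, the amino acid sensor GCN2, by 0.45 (adjusted p = 0.008; 0.0553 with position as a covariate). Gcn1l1, the GCN2 activator, rose by 0.68. The inner-membrane protease gene Oma1, whose product cleaves DELE1 to signal mitochondrial stress to HRI, had 118, 110.2 and 111 with DMSO and 98.1, 105 and 150.3 with antimycin, which overlap, and was not called at 0.07 (adjusted p = 0.717), whereas the gene for DELE1 (listed under its older name 0610009O20Rik) rose by 0.52. These are transcript levels; kinase activity was not measured.

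Amino acid supply rose in part. Of 17 amino acid synthesis genes, 10 rose, 3 fell and 4 were not called, with a median of 0.79; by total counts 10 rose and 7 fell. Cth, cystathionine gamma-lyase, which makes cysteine, had 131, 113 and 119.7 with DMSO and 1071, 1000.2 and 948 with antimycin, log2 fold change 3.07 (SE 0.10, adjusted p = 5.98e-22, edgeR). Gpt2, mitochondrial alanine transaminase, had 522, 883 and 899 with DMSO and 4395, 4659 and 4249.9 with antimycin, log2 fold change 2.54 (SE 0.11, adjusted p = 1.02e-18, edgeR). Asns, asparagine synthetase, rose by 1.81. In each of these 3 genes every antimycin value lay above every DMSO value. The falls included Prodh, the proline dehydrogenase that passes electrons to coenzyme Q, by 1.17. Relative to piericidin the same list lay lower: 15 of 17 genes were lower with antimycin than with piericidin and 1 was higher, with a median difference of -0.39, where 17.9% of all genes were lower and 19.3% higher in that comparison. Cth was -1.43 (adjusted p = 2.15e-14) against piericidin and -1.28 (adjusted p = 1.11e-13) against oligomycin on the log2 scale.

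In one-carbon metabolism, which supplies folate-bound carbon for nucleotides, 6 of 11 genes rose and 3 fell. The rises were led by the mitochondrial enzymes Aldh1l2, Mthfd2 and Shmt2, at 2.44, 2.20 and 1.11 on the log2 scale. Aldh1l2 went from 344, 337 and 327 to 1784, 1847 and 1791. The falls included Tyms (-0.99), which makes thymidylate. Of 14 amino acid transporters, 9 rose and 2 fell, with a median of 1.06 (8 and 4 by total counts). Slc6a9, a glycine transporter, had 158, 166 and 167 with DMSO and 1045, 1021 and 978 with antimycin, log2 fold change 2.64 (SE 0.09, adjusted p = 1.22e-21, edgeR), and Slc7a5, the large neutral amino acid carrier, rose by 2.49 with its partner Slc3a2 at 2.64. Slc1a3, which carries glutamate and aspartate into cells, fell from 172, 134 and 172 to 51.1, 71.9 and 50.1, log2 fold change -1.45 (SE 0.22, adjusted p = 1.14e-06, edgeR). Slc7a3, a carrier of basic amino acids, was not called against DMSO, at 1.11 (adjusted p = 0.207), and was among the largest differences from piericidin, at -3.11 (adjusted p = 5.1e-05).

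Of 20 cytosolic tRNA synthetase genes, 17 rose and 1 fell, with a median of 1.20; of 17 mitochondrial ones, 7 rose, 2 fell and 8 were not called, with a median of 0.31. Sars, which charges serine tRNA, went from 2220.2, 2202 and 2223 to 8292, 8404 and 8191, log2 fold change 1.92 (SE 0.04, adjusted p = 7.1e-27, edgeR). The cytosolic exception was Dars, for aspartate, at -0.34 (adjusted p = 3.03e-05), and its groups did not overlap. Without antimycin replicate 2 the cytosolic falls numbered 2, and with only the compared groups in the fit the mitochondrial falls numbered 4. By total counts the cytosolic genes counted 15 rises and 3 falls and the mitochondrial ones 5 and 5. Vars rose by 1.69 with wide values (649.9, 1436 and 991 with DMSO and 3669, 2278 and 3943 with antimycin) and was not called with position as a covariate (adjusted p = 0.176).

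Secreted factors split by gene. Of 17 tested, 8 rose, 5 fell and 4 were not called, with a median of 0.05. Fgf21, a circulating hormone of energy stress (chr7:45613886-45615490), had 1.91, 0.73 and 0.966 with DMSO and 326, 282 and 330.0 with antimycin; the DMSO samples held 4 counts in all, for a ratio, again scaled by total counts, of 222 with a 95% counting interval of 86.3 to 816. Inhba, whose product forms activin A, rose from 565, 595 and 563 to 13625, 13315 and 13048, log2 fold change 4.54 (SE 0.07, adjusted p = 4.77e-30, edgeR), and Gdf15 rose by 6.51. Vegfa, the endothelial growth factor, rose by 2.81. In contrast, Angptl4, an inhibitor of lipoprotein lipase, fell from 2239, 2209.6 and 2228 to 534, 555 and 439, log2 fold change -2.12 (SE 0.07, adjusted p = 9.21e-22, edgeR). The chemokine genes Ccl2 and Cxcl12 fell by 1.29 and 1.12. Against piericidin 8 genes of the list were higher and 1 lower (19.3% and 17.9% of all genes), with a median difference of 1.24. Ccl2 was 2.18 and Inhba 1.83 higher on the log2 scale, and the gene lower than with piericidin was Angptl4 (-1.90).

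**Figure D2:**
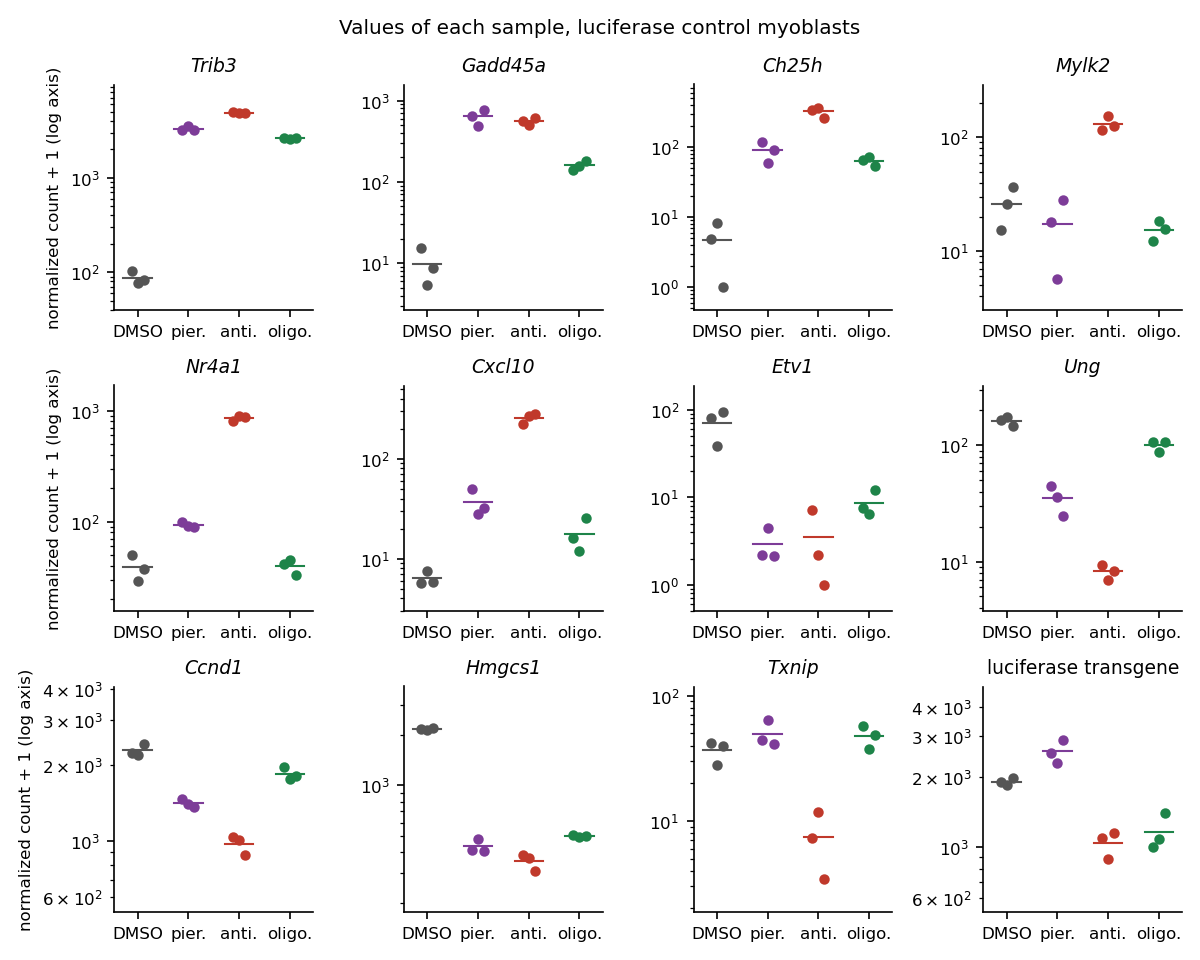
Normalized count plus 1 on a log axis, in luciferase control myoblasts, for 12 genes; each point is 1 sample (3 for each of DMSO, piericidin, antimycin and oligomycin) and each bar the group mean. Mylk2, Nr4a1 and Cxcl10 lie highest with antimycin, and Ung and Txnip lie lowest with it, each without overlap with the other 3 treatments.

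Immediate early genes, which respond to growth factors and stress within minutes to hours, were mostly higher. Of 23 tested, 15 rose and 5 fell, with a median of 1.83. Nr4a1, an orphan nuclear receptor (chr15:101254269-101274795), had 49.5, 28.4 and 36.7 with DMSO and 808, 888 and 874 with antimycin, log2 fold change 4.51 (SE 0.21, adjusted p = 8.78e-18, edgeR). Klf6, a zinc finger factor, rose from 1199, 1162 and 1162 to 11029, 11416 and 10866, log2 fold change 3.25 (SE 0.05, adjusted p = 5.59e-29, edgeR), and Klf4 rose by 3.30. The Egr genes, targets of growth factor signaling to ERK, went the other way: Egr1 had 748, 1110.3 and 1108 with DMSO and 233, 223 and 243 with antimycin, log2 fold change -2.08 (SE 0.11, adjusted p = 4.97e-16, edgeR), Egr2 fell by 1.82 and Egr3, which the naming rule left out for its low count, by 3.42. Against piericidin 17 of 23 genes were higher with antimycin and 1 was lower (19.3% and 17.9% of all genes). Against oligomycin 14 were higher and 4 lower (26.1% and 23.9% of all genes). For Nr4a1 these differences were 3.22 and 4.48 on the log2 scale. Egr1 was higher with antimycin than with piericidin (0.92) and lower than with oligomycin (-1.66).

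Among 20 genes known as targets of p53, the DNA damage and stress factor, 10 rose, 3 fell and 7 were not called, with a median of 0.42. Pmaip1, the pro-apoptotic NOXA, went from 81.0, 66.4 and 72.4 to 2176, 2126 and 2265, log2 fold change 4.92 (SE 0.12, adjusted p = 5.01e-25, edgeR), and Plk2, a kinase, rose by 2.50. Mdm2, the ubiquitin ligase of p53, had 929, 810.5 and 966 with DMSO and 1858, 1858 and 1738 with antimycin, log2 fold change 1.02 (SE 0.06, adjusted p = 6.35e-16, edgeR), and Cdkn1a, the cell cycle inhibitor p21, rose by 0.74. Each of these 4 genes had antimycin values above every DMSO value. Trp53inp1 had overlapping groups and was not called, at -0.28 (adjusted p = 0.361). Sesn1, a sestrin that p53 is known to induce, fell from 160.1, 163 and 176 to 34.4, 47.9 and 77.0, log2 fold change -1.65 (SE 0.20, adjusted p = 2.92e-08, edgeR), and Ccng1 fell by 0.77. The risers Gadd45a, Pmaip1 and Plk2 are also known to respond to other stresses than p53.

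Genes for complex III itself, the drug's target, all lay within 2-fold of DMSO relative to the median gene. Of 14 tested subunit and assembly genes encoded in the nucleus, 6 rose and 4 fell, with log2 fold changes from -0.88 (Uqcc3, an assembly factor) to 0.68 and a median of 0.18; by total counts 1 rose and 7 fell. Uqcrq, a small subunit, had 656, 651 and 698 with DMSO and 841, 1146 and 1210.1 with antimycin, log2 fold change 0.68 (SE 0.11, adjusted p = 2.28e-06, edgeR). Uqcrh, the hinge protein of the cytochrome c1 part, had 1351, 1169 and 1251 with DMSO and 720.2, 758 and 743 with antimycin, log2 fold change -0.75 (SE 0.07, adjusted p = 1.22e-10, edgeR). Uqcrfs1, the Rieske iron-sulfur protein, fell by 0.34. Of 21 genes for enzymes that reduce coenzyme Q or make it, 5 rose, 6 fell and 10 were not called; without antimycin replicate 2 or without DMSO replicate 3 the rises numbered 2, and by total counts 1 rose and 15 fell. Dhodh, dihydroorotate dehydrogenase, had 199, 167 and 193 with DMSO and 182, 220.4 and 163 with antimycin, which overlap, at 0.03 (adjusted p = 0.841), or -0.27 (0.0226) by total counts, and Gpd2, the glycerol phosphate shuttle enzyme, fell by 0.24. The largest change among tested genes of both lists was that of Prodh, above.

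Most transcripts of the mitochondrial genome fell. Of 13, 10 fell, 2 rose and 1 was not called, with a median of -0.59. The complex I subunit mt-Nd1 had 23473, 20231 and 18415 with DMSO and 10645, 10492 and 9639 with antimycin, log2 fold change -1.003 (SE 0.09, adjusted p = 1.89e-11, edgeR), and mt-Nd5 fell by 0.92. mt-Cytb, the only complex III subunit encoded there, had 10924, 9369 and 8714 with DMSO and 7635, 7479.7 and 6813 with antimycin, log2 fold change -0.39 (SE 0.08, adjusted p = 0.000156, edgeR). The groups of these 3 genes did not overlap. The complex IV subunits mt-Co1 and mt-Co2 rose by 0.30 and 0.38, the first not called without DMSO replicate 3 (log2 fold change 0.18, adjusted p = 0.063), which left 1 rise, and neither called by total counts (0.01, adjusted p = 0.935, and 0.08, adjusted p = 0.428). mt-Nd4l had the largest fall (-2.14), with 98.1, 115 and 0 normalized counts with antimycin, but it overlaps mt-Nd4, as mt-Atp8 overlaps mt-Atp6, and the split of reads between them is uncertain. All genes of the mitochondrial genome together took 2.03% to 2.29% of counts with antimycin and 2.87% to 3.60% with DMSO. Against oligomycin 10 of the 13 were lower and 3 higher (23.9% and 26.1% of all genes). Against piericidin 5 were lower and 2 higher (17.9% and 19.3% of all genes), and 6 were not called, with a median difference of -0.25.

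**Figure D3:**
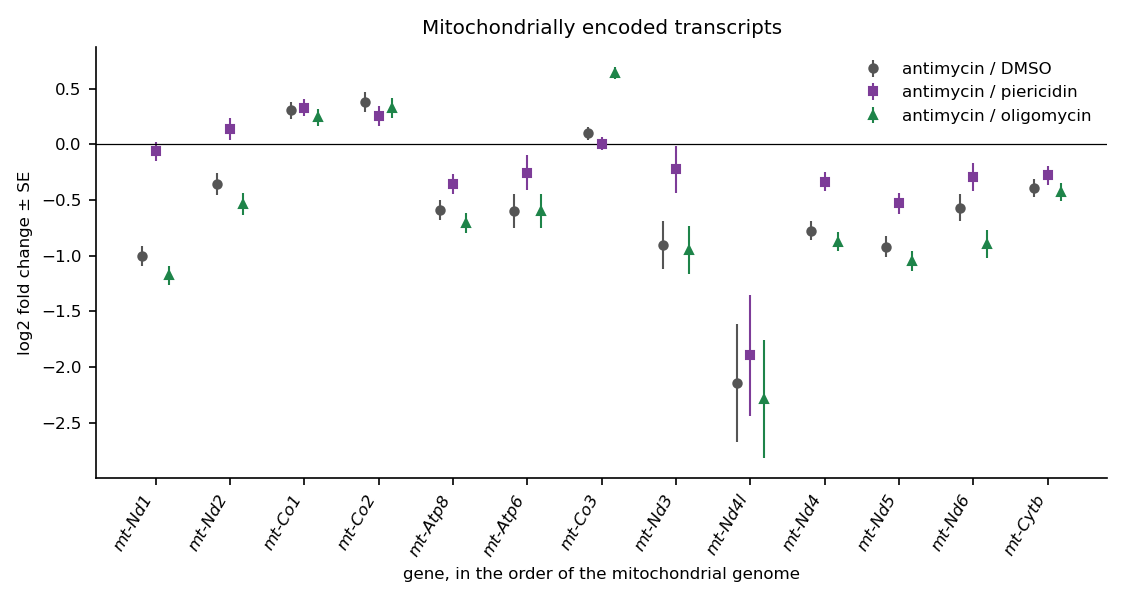
Log2 fold change of antimycin over DMSO (circles), piericidin (squares) and oligomycin (triangles) for the 13 mitochondrially encoded transcripts in genome order, with bars of 1 SE from the edgeR fit (3 samples a group). mt-Nd1 lies at -1.003 against DMSO and at -0.06 against piericidin, while mt-Co1 and mt-Co2 lie above 0 in all 3 comparisons as drawn and were not called against DMSO when scaled by total counts.

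Of 15 mitochondrial chaperone and protease genes, 11 rose and 1 fell, with a median of 0.34; by total counts 6 rose and 4 fell. Lonp1, the matrix protease, went from 333, 390.3 and 349 to 1202, 1212 and 1307, log2 fold change 1.80 (SE 0.11, adjusted p = 1.27e-14, edgeR). Hspa9, the matrix chaperone mortalin, had 6546, 6500.4 and 6801 with DMSO and 17456, 17568 and 16920.2 with antimycin, log2 fold change 1.40 (SE 0.04, adjusted p = 3.34e-23, edgeR). Both were clear of their DMSO values. Afg3l2, an inner-membrane protease, had one low DMSO value (159, 649 and 449.9 with DMSO and 980.1, 948 and 906 with antimycin); its call was lost without DMSO replicate 1 (adjusted p = 0.0719) and with position as a covariate (0.213). In the endoplasmic reticulum list 9 of 19 genes rose, 5 fell and 5 were not called, and the falls numbered 3 without antimycin replicate 3 and with position as a covariate; by total counts 4 rose and 10 fell. Herpud1, which serves degradation of misfolded proteins, rose from 798, 746 and 851 to 4548, 4662 and 4504, log2 fold change 2.53 (SE 0.06, adjusted p = 4.82e-26, edgeR), the chaperone gene Hspa5 (BiP) rose by 2.07 and Xbp1 by 2.26, whereas the chaperone genes Creld2 and Dnajc3 fell by 0.66 and 0.48. Against oligomycin 15 of the 19 were higher and 0 lower, with a median difference of 0.67; against piericidin 3 were higher and 7 lower. All genes were at 26.1% and 23.9% in the first of these comparisons and at 19.3% and 17.9% in the second.

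Of 20 genes of glycolysis and glucose sensing, 5 rose, 9 fell and 6 were not called, with a median of -0.15; without antimycin replicate 2 the rises numbered 3, and by total counts 2 rose and 14 fell. Hk2, hexokinase 2, went from 200.1, 183 and 194 to 1901, 1767 and 1769, log2 fold change 3.25 (SE 0.11, adjusted p = 1.11e-21, edgeR). Slc2a1, the glucose transporter GLUT1, had 494, 486 and 437 with DMSO and 2904, 2776 and 2746 with antimycin, log2 fold change 2.58 (SE 0.08, adjusted p = 2.84e-22, edgeR). Pfkm and Pfkl, 2 phosphofructokinase genes, fell by 1.51 and 0.75. Txnip, an inhibitor of glucose uptake whose gene responds to glucose phosphates (chr3:96557957-96561883), had 41.0, 27.0 and 38.6 with DMSO and 6.26, 10.8 and 2.44 with antimycin, log2 fold change -2.41 (SE 0.37, adjusted p = 1.43e-06, edgeR). It was also lower than with piericidin, at -2.87 (adjusted p = 1.98e-07), and than with oligomycin, at -2.80 (adjusted p = 1.67e-07). Of 15 genes of NADH shuttles and lactate, 5 rose (3 without antimycin replicate 2, 2 by total counts) and 8 fell. Of the monocarboxylate carrier genes, Slc16a1 rose by 1.68 and Slc16a3 fell from 78.1, 62.7 and 56.0 to 18.8, 8.39 and 7.33, log2 fold change -2.45 (SE 0.27, adjusted p = 4.93e-09, edgeR). Slc25a12, the aspartate-glutamate carrier, fell by 1.03 and cytosolic Gpd1l by 0.99.

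Targets of the oxygen-sensitive factor HIF did not move together: of 16, 7 rose and 6 fell, with a median of -0.17 (6 and 10 by total counts). Ndrg1, a stress and hypoxia gene, had 279, 352 and 351 with DMSO and 9581, 9729 and 9637 with antimycin, log2 fold change 4.89 (SE 0.07, adjusted p = 8.31e-31, edgeR), and Ero1l, an oxidase of protein folding, rose by 2.97. Egln3, which encodes a prolyl hydroxylase of HIF, fell from 320.2, 250.2 and 283 to 41.8, 32.3 and 18.3, log2 fold change -3.17 (SE 0.22, adjusted p = 1.37e-13, edgeR), and Kdm3a, a histone demethylase gene, fell by 0.59. Of 18 NRF2 and antioxidant genes, 7 rose and 7 fell (3 and 8 by total counts). Hmox1, heme oxygenase 1, went from 431, 425 and 399.7 to 5775, 5707 and 5723, log2 fold change 3.79 (SE 0.08, adjusted p = 6.13e-27, edgeR), and Sqstm1, the autophagy receptor p62, rose by 2.99. Nqo1, a quinone reductase and a standard NRF2 target, had 734, 778 and 819.7 with DMSO and 409, 401 and 373 with antimycin, log2 fold change -0.97 (SE 0.07, adjusted p = 7.59e-13, edgeR), and G6pdx, the first enzyme of the pentose phosphate pathway, fell by 1.43.

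Growth-related genes fell in one part and rose in another. Of 40 DNA replication and G1/S genes, 37 fell and 1 rose, with a median of -0.99; of 28 G2 and mitosis genes, 25 fell and 1 rose, with a median of -0.71. Ccne2, cyclin E2, had 839, 756 and 816 with DMSO and 143, 98.2 and 104 with antimycin, log2 fold change -2.79 (SE 0.12, adjusted p = 8.83e-19, edgeR). E2f2, a transcription factor of S phase, fell by 2.63, and Ccnd1, cyclin D1, went from 2222, 2189 and 2419 to 1033, 1007 and 873, log2 fold change -1.22 (SE 0.06, adjusted p = 4.34e-18, edgeR). The exceptions were the replication licensing gene Cdt1, at 0.38 (adjusted p = 1.32e-05), and the spindle gene Tpx2, at 0.41 (adjusted p = 4.42e-07), which rose; neither was called by total counts (0.08, adjusted p = 0.279, and 0.11, adjusted p = 0.09). Of the mitotic genes, Aurkb, the kinase of the chromosomal passenger complex, had 1106, 1058 and 1090.0 with DMSO and 387, 311 and 364 with antimycin, log2 fold change -1.60 (SE 0.07, adjusted p = 5.06e-19, edgeR). Against piericidin 22 of 28 G2 and mitosis genes were lower with antimycin and 1 was higher, with a median difference of -0.36, while 14 of 40 replication genes were lower and 8 higher (17.9% and 19.3% of all genes). The E2F letters TTTCCCGC were in 6 of 32 replication gene promoters and in 2.53% of tested genes with a promoter.

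By contrast, all 20 ribosome biogenesis genes tested rose, with a median of 0.74 and a range from 0.25 to 1.57; by total counts 15 rose and 0 fell. Rrp12, for export of ribosome precursors, went from 506, 501 and 503 to 1376, 1573 and 1509.5, log2 fold change 1.57 (SE 0.08, adjusted p = 1.66e-17, edgeR), and Nop56, of the box C/D snoRNA particle, rose by 1.52. Transcripts that host snoRNAs rose at 8 of 9 genes, with a median of 1.22. Snhg12 had 101, 142 and 119 with DMSO and 1541, 1429 and 1565 with antimycin, log2 fold change 3.65 (SE 0.10, adjusted p = 3.77e-23, edgeR), and Gas5, a growth arrest transcript that is degraded when translated, had 972, 862 and 878 with DMSO and 4603, 5217 and 5053 with antimycin, log2 fold change 2.47 (SE 0.07, adjusted p = 8.08e-24, edgeR). The exception, Snhg3, fell by 1.11. The libraries were not strand-specific, so reads from genes that overlap these on the other strand cannot be told apart. Of 14 pyrimidine genes, 3 rose and 8 fell. Ctps, CTP synthase 1, rose by 0.59 and Ctps2 fell by 0.79, and Cad, which runs the first steps of the pathway, rose by 0.47. The uridine kinase gene Uck2 rose by 1.34 with scattered values (740.1, 437 and 1165 with antimycin), a call lost without antimycin replicate 3 (0.94, adjusted p = 0.125) and with position as a covariate (0.32, adjusted p = 0.50), and also by total counts (1.05, adjusted p = 0.0586).

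Lipid synthesis genes fell without a called rise: 24 of 24 sterol genes, with a median of -1.26, and 9 of 12 fatty acid genes, with a median of -0.50. Hmgcs1, which makes the precursor of mevalonate, had 2153, 2118 and 2192 with DMSO and 385, 370.1 and 308 with antimycin, log2 fold change -2.59 (SE 0.07, adjusted p = 6.42e-24, edgeR). Stard4, a carrier of cholesterol, went from 296, 307 and 259 to 48.0, 26.4 and 36.7, log2 fold change -2.93 (SE 0.18, adjusted p = 5.34e-15, edgeR). Elovl6, which elongates saturated fatty acids, had 706, 662 and 668 with DMSO and 62.6, 79.1 and 88.0 with antimycin, log2 fold change -3.14 (SE 0.13, adjusted p = 5.01e-19, edgeR). The desaturase gene Scd2 fell by 2.77, and Srebf1, the regulator of fatty acid synthesis, by 0.98. Relative to piericidin, 10 sterol genes were higher with antimycin and 3 lower, and 8 fatty acid genes were higher and 2 lower. Of all genes, 19.3% were higher and 17.9% lower in that comparison. Scd2 was 0.62 higher on the log2 scale. The sterol response letters TCACNCCAC were found in 1 of 16 sterol promoters, that of Hmgcs1 (137 bases before its start), and in 1.37% of tested genes with a promoter. The window is shown because Hmgcs1 was the only sterol gene with these letters.
Hmgcs1, chr13:119690188-119690247, plus strand: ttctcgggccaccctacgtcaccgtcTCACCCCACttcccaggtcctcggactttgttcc

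Of 17 muscle genes tested, 6 rose and 8 fell, where 32.1% and 31.1% of all genes did. Myf5, a myogenic determination factor of myoblasts (chr10:107482908-107486134), had 132, 106 and 102 with DMSO and 1333, 1418 and 1412 with antimycin, log2 fold change 3.62 (SE 0.13, adjusted p = 2.92e-20, edgeR). Myod1, its close relative, had 1233, 1251 and 1319 with DMSO and 1613, 1550.1 and 1385 with antimycin, log2 fold change 0.27 (SE 0.07, adjusted p = 0.000887, edgeR), or -0.03 (adjusted p = 0.731) by total counts. Myog, which marks the start of differentiation, did not pass the count filter and had values of 7.62 or lower in all 6 samples. Acta1, skeletal muscle actin, went from 196, 149.5 and 162 to 964, 865 and 892, log2 fold change 2.44 (SE 0.14, adjusted p = 1.12e-15, edgeR), while the homeobox gene Six4 fell by 1.83 and Id2, an inhibitor of differentiation factors, by 1.41. Against piericidin 10 genes of this list were higher with antimycin and 0 lower (19.3% and 17.9% of all genes). Of 17 collagen and matrix genes 12 rose and 3 fell (7 and 6 by total counts). Postn, periostin, had 18.1, 10.9 and 16.4 with DMSO and 119, 134 and 138 with antimycin, log2 fold change 3.12 (SE 0.48, adjusted p = 1.43e-06, edgeR), and Fn1, fibronectin, rose by 1.57, whereas the fibrillar collagen genes Col1a2 and Col3a1 fell by 0.43 and 0.27.

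**Figure D4:**
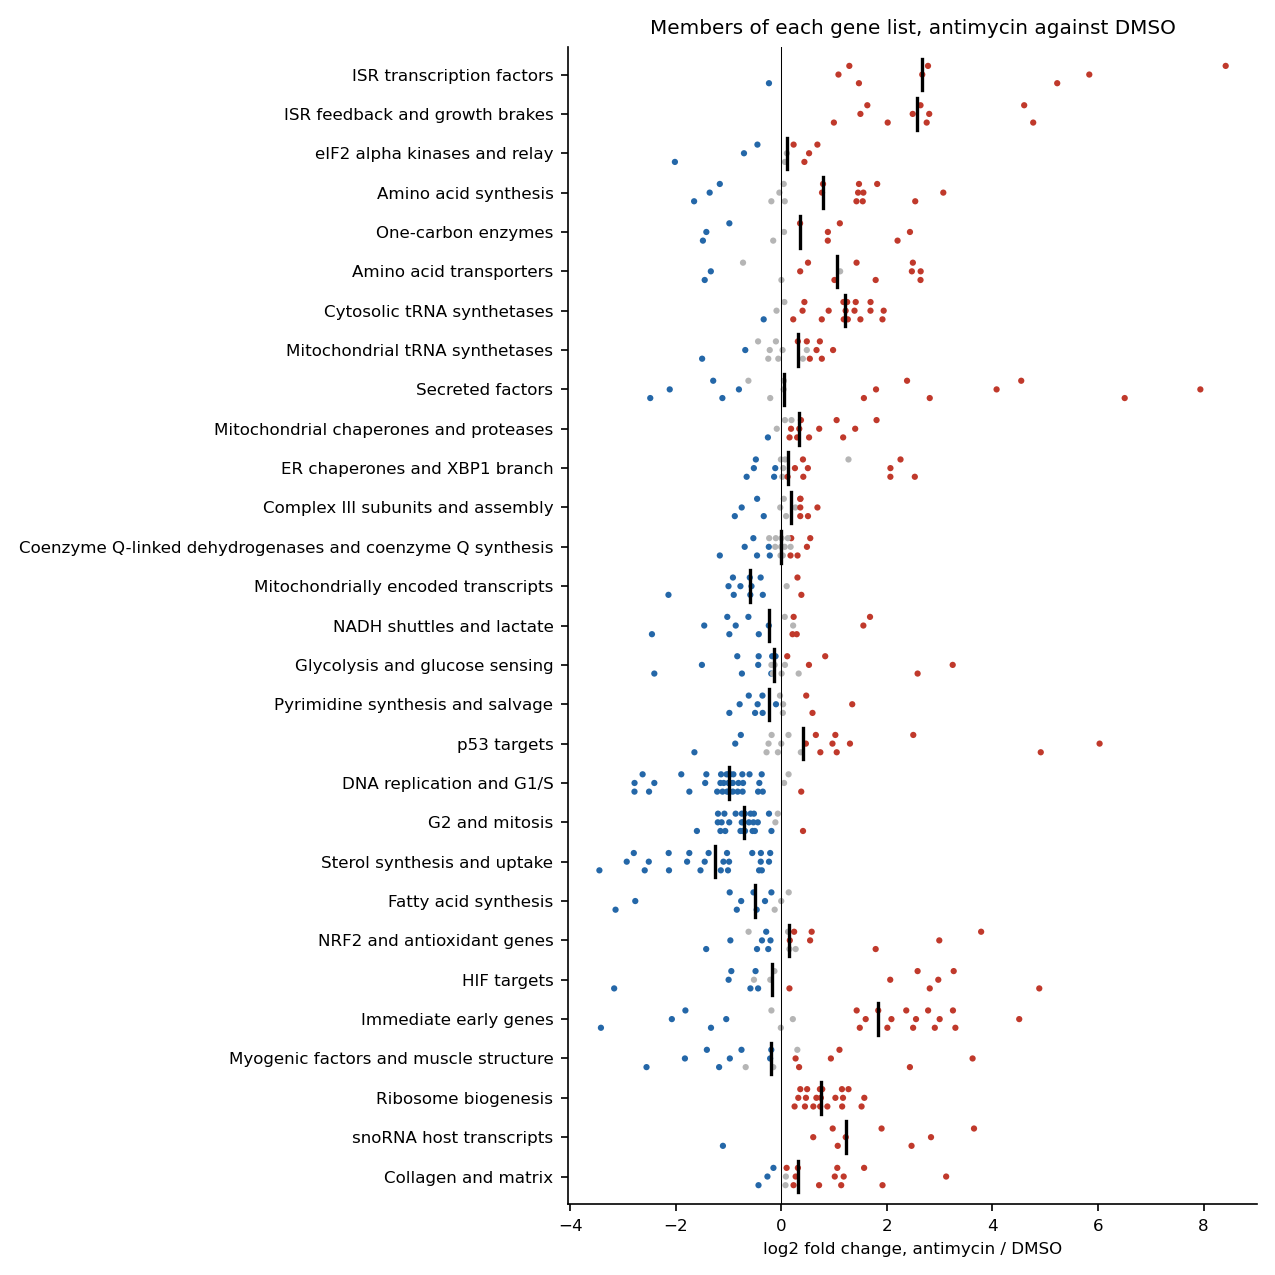
Log2 fold change of antimycin over DMSO (x axis) for the tested members of 29 gene lists (rows); each point is a gene, red where called higher, blue where called lower and grey where not called (edgeR, adjusted p of 0.05), and each black bar the median of the list. The medians of the ISR transcription factor, cytosolic tRNA synthetase and ribosome biogenesis lists lie right of 0, and those of the replication, mitosis and sterol lists lie left of it.

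Set directly against the other inhibitors, 37.2% of genes differed between antimycin and piericidin and 50% between antimycin and oligomycin, by edgeR; these comparisons share the antimycin samples with the one against DMSO. At least 2-fold differences from piericidin made up 3.28% of genes higher and 2.52% lower with antimycin, and those from oligomycin 5.58% and 6.01%. Scaling by total counts gave 1830 genes higher and 2635 lower than with piericidin in place of 2310 and 2145, and 2094 higher and 4055 lower than with oligomycin in place of 3128 and 2866. The genes named next were chosen after their values were seen, from the 8 largest differences from piericidin each way under the same criteria. Mylk2, a skeletal muscle myosin kinase, had 114, 153 and 126 with antimycin against means of 24.9 ± 10.7 with DMSO and 16.1 ± 11.1 with piericidin (SD, n = 3 each; log2 difference from piericidin 3.02, adjusted p = 8.52e-07, edgeR), and Pappa, a protease of IGF-binding proteins, had 56.4, 46.7 and 52.6 against 5.77 ± 2.5 and 3.95 ± 5.03. Both stood above the other 3 treatments in every sample. Nr4a1, Ccl4, Rsad2, Ifit3 and Cxcl10 were also among the 8.

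On the lower side, Avil, which encodes the actin-binding protein advillin, had 56.4, 49.1 and 28.1 with antimycin, above 3.81, 1.46 and 0 with DMSO but far below means of 241 ± 51.4 with piericidin and 421 ± 16.4 with oligomycin (SD, n = 3 each). Dyrk4, a kinase gene, and Gpr141, a receptor gene, showed the same order, at -3.21 and -2.21 against piericidin. Fam208a and Zfp966 were instead lower than with every other treatment: Fam208a, a component of the HUSH silencing complex, had 12.5, 10.8 and 24.4 with antimycin, 74.3, 74.4 and 55.0 with DMSO and 89.0, 59.5 and 67.3 with piericidin, with a log2 fold change -2.17 (SE 0.28, adjusted p = 3.39e-07, edgeR) against piericidin. Slc7a3, Sspo and Tfcp2l1 made up the rest, at -3.11, -2.96 and -2.15. The luciferase transgene was also lower with antimycin than with piericidin, at -1.30 (adjusted p = 2.41e-06), and was not called against oligomycin, with which it had 996, 1076 and 1394 normalized counts, at -0.13 (adjusted p = 0.441); its part in these differences was not tested.

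**Figure D5:**
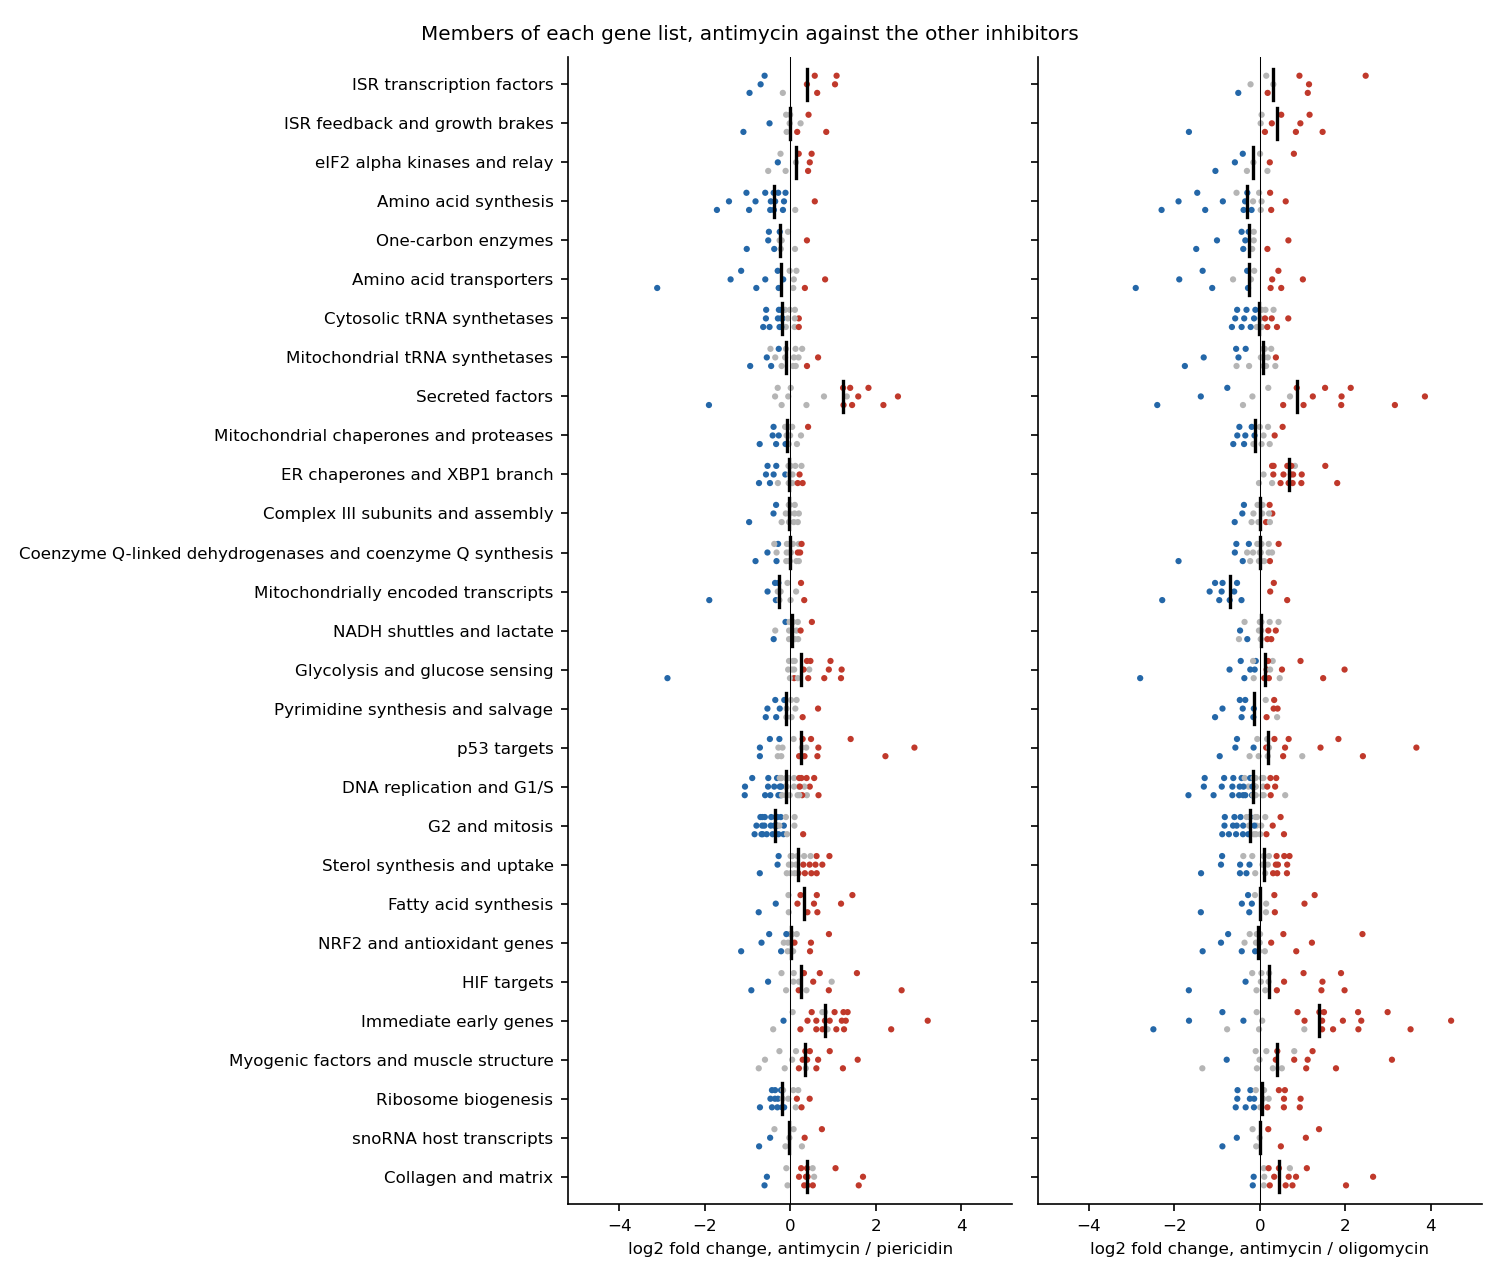
Log2 fold change of antimycin over piericidin (left) and over oligomycin (right) for the same 29 gene lists, drawn as in the plot against DMSO. The immediate early list has a median of 0.81 against piericidin and 1.39 against oligomycin, the amino acid synthesis list -0.39 and -0.29, and the endoplasmic reticulum list -0.04 and 0.67.

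In other lists, read against 19.3% of all genes higher and 17.9% lower than with piericidin, 0 were higher and 3 lower of 14 complex III genes, 3 and 4 of 21 coenzyme Q genes, 2 and 2 of 15 NADH shuttle genes, 1 and 6 of 15 mitochondrial chaperones, 2 and 11 of 20 cytosolic tRNA synthetases, and 10 and 1 of 20 glycolysis genes, in which Pfkm was 1.20 higher with antimycin. Among ISR factors, 5 were higher with antimycin and 3 lower: Atf3 was 1.08 and Ddit3 0.63 higher, while Creb3l2 was -0.69 and Nupr1 -0.60. The differences in this list ran from -0.95 to 1.08. Antimycin and piericidin were used at the same concentration and oligomycin at a higher one, and position codes inside the grid number 3 of 3 with antimycin and 2 of 3 with each of the other inhibitors; their part in these differences was not tested beyond the fit with position as a covariate, which called 4493 genes against piericidin in place of 4455.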

How the data were processed

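RNA was sequenced from polyA-selected Smart-seq2 libraries, which keep no strand, on 2 flow cells with paired reads of 37 bp. The authors quantified transcripts with kallisto 0.44 against Ensembl release 93 (GRCm38.p6), summed them to genes with tximport and deposited estimated counts, with no normalization. These were rounded to whole numbers here.

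All 37 myoblast samples of the 10 hr experiments entered 1 edgeR quasi-likelihood fit (edgeR 4.0.16, R 4.3.3) with TMM scaling and 1 coefficient per group, so the spread was shared. A gene was kept where all replicates of 1 or more groups held 16 counts or more, which left 11981 of 54146. P-values were adjusted by Benjamini-Hochberg over all of them, and a gene was called at 0.05. Normalized counts are counts over DESeq2 1.42.0 size factors, and the SE is the log2 fold change over the root of its F statistic. Totals of 10160001 to 13898633 counts limit genes of low counts most; ratio intervals and floors cover counting error only.

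The gene lists and the samples were chosen with earlier results of these data known. Named genes were the 8 largest rises and falls (mean of at least 50, groups apart, no predicted gene), up to 3 each way per list, and a fixed panel; Nupr1, Jdp2, Sesn2, Ddit4, Pycr1, Egr3, 0610009O20Rik, the differences from piericidin and the interferon genes were named after their values were seen. Of 524 list entries, 523 were in the table under current or older symbols; Choldh was not analysed here, and some genes that the rule names are not reported here. Gene coordinates are from GENCODE M21, promoters from RefSeq. kallisto shares reads between close paralogs. On simulated counts for antimycin against DMSO over 11981 genes, the fit found 83 of 100 genes changed by a log2 fold of 1. It found 99 of 100 changed by 2, with 12 false calls. Only these genes were changed, all with mean counts of 50 or more, whereas 63.2% of genes were called in the data. The simulation therefore cannot show how many calls are false when so many genes move. All 6 replicate pairs differed by more than sampling noise. Alternatives were DESeq2 size factors, its Wald test, no count filter, only the compared groups, position as a covariate, a replicate block, leaving out each replicate and, added after the data were seen, scaling by total counts alone.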

Additional observations from a re-analysis of the deposited data

How the results depend on the processing

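The 12 counts of called genes (called, higher, lower and at least 2-fold, in 3 comparisons) stayed within 1.5 times their value under every alternative but scaling by total counts. Against DMSO, piericidin and oligomycin, 7568, 4455 and 5994 genes were called; the counts were 7569, 4432 and 5930 with DESeq2 size factors, 7455, 4254 and 5775 with DESeq2's Wald test, 7277, 3756 and 5538 without the count filter, 7193, 3767 and 5589 with only the compared groups, 6968, 4493 and 6001 with position as a covariate, and 7937, 4465 and 6149 by total counts, chosen after seeing the data, which gave 2290 higher and 5647 lower against DMSO. Leaving out 1 replicate gave 7084 to 7249, 3891 to 4039 and 5399 to 5678. Of 2374 values of named genes under the alternatives, 2338 kept their direction and side of the threshold, 32 values of 17 genes missed it, and 4 changed sign, all by total counts: Eif2s1 (-0.0644, adjusted p = 0.30), Dhodh (-0.27, 0.0226), Mdh2 (-0.00539, 0.91) and Myod1 (-0.0264, 0.731). With position as a covariate, the calls of Eif2b5 (log2 fold change 0.24, adjusted p = 0.0798), Hsp90b1 (-0.08, 0.0809), Mlxip (0.37, 0.152) and Bnip3 (-0.33, 0.0555) were lost beside those given above, and that of Uqcc2 was lost when 1 replicate was left out, and that of Coq4 then and with no count filter (adjusted p = 0.159); the cause was not tested. All p-values are from edgeR. Low counts limit the fold changes of genes near 0 in 1 group.

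Replicate numbers are shared by the groups, and samples of one number did not deviate together (correlations of -0.122 to -0.003, against -0.068 to 0.082 for other numbers), so they were not treated as paired. With a replicate block, 7643, 4552 and 6076 genes were called.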

Other observations

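Interferon-stimulated genes, which encode antiviral effectors, sensors and signal carriers, were listed after their values were seen, so their counts describe the choice as well as the data. Of 22 members, 16 were tested, 8 rose, 5 fell and 3 were not called, where 32.1% of all genes rose and 31.1% fell (edgeR's quasi-likelihood test, here and below). The antiviral effector gene Ifit1 had normalized counts of 14.3, 23.3 and 15.4 with DMSO and 278, 289.9 and 301 with antimycin, log2 fold change 4.01 (SE 0.31, adjusted p = 1.25e-12, edgeR). Cxcl10, a chemokine that draws T cells, had 4.76, 6.57 and 4.83 with DMSO and 220.2, 267 and 277 with antimycin, log2 fold change 5.52 (SE 0.56, adjusted p = 8.27e-10, edgeR). Oasl1, a relative of the oligoadenylate synthetases, had 0.953, 8.02 and 0.966 with DMSO and 104, 132 and 96.6 with antimycin, log2 fold change 4.89 (SE 0.56, adjusted p = 9.08e-09, edgeR). In each of these genes the lowest antimycin value lay above the highest DMSO value. Rsad2, which encodes the antiviral enzyme viperin, had 0.953, 2.19 and 0.966 with DMSO and 69.9, 53.9 and 61.1 with antimycin, a ratio of counts scaled by total counts of 35.2 with a 95% interval of 14.8 to 110 for counting error. Isg15, a ubiquitin-like modifier, rose by 2.19, and Ifit3, whose close relatives make its reads uncertain, by 3.94.

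Irf1, a transcription factor induced by interferon gamma, had 305, 304 and 319.6 with DMSO and 111, 92.2 and 68.4 with antimycin, log2 fold change -1.75 (SE 0.15, adjusted p = 3.36e-11, edgeR). Stat2, which carries the interferon signal to the nucleus, fell by 0.47, and the gene for the RNA sensor RIG-I (listed as Ddx58) by 0.80, whereas that of its relative MDA5, Ifih1, rose by 1.02. Eif2ak2 also fell, by 2.02. The interferon gene Ifnb1 and the effector gene Oas1a had no count in any of the 6 samples. The mean for Cxcl10 was 255 ± 30.5 normalized counts with antimycin, against 35.8 ± 11.9 for piericidin and 16.8 ± 6.92 for oligomycin; for Ifit1 it was 289 ± 11.5, against 62.8 ± 16.2 and 92.9 ± 9.42 (SD, n = 3 each).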
